A study of Homo sapiens with 12 samples.

Results

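The 13 mRNAs encoded by the mitochondrial genome and 26 nuclear genes that copy, transcribe, process or regulate that genome were examined as 1 module of 39 genes. Members were chosen by name, from the known content of the mitochondrial genome and from the known roles of the nuclear proteins. Earlier results of these data were known when the choice was made. All 39 were found among the 58735 genes of the raw count table, FASTKD4 under its other name TBRG4, and all 39 were among the 17290 genes with enough reads to test. The smallest count of a mitochondrial mRNA in any library was 641 (ATP8), and the smallest of a nuclear member was 7 (PPARGC1A).

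RNA was sequenced from U2OS cells, a human osteosarcoma line, after 24 h in 4 conditions with 3 libraries each. The conditions were 10 µM TH10785 together with 10 µM PNKP1i (called the combination here), 10 µM TH10785 alone, 10 µM PNKP1i alone, and the solvent DMSO. TH10785 is a small molecule that activates OGG1, a DNA glycosylase that removes oxidised guanine from nuclear and mitochondrial DNA, whereas the labels give PNKP1i by its name only. Whether the 3 libraries of a group came from separate cultures is not stated, so a p-value reflects the spread among these libraries alone, which may be technical. Depth ran from 16225339 to 21546369 counts per library. Of the mesenchymal and bone markers, VIM (684 to 1125 CPM, the count scaled to library size), SPARC (760.3 to 1934 CPM) and COL1A1 (573 to 1799 CPM) were high in every library and COL1A2 was near 0 (0.0485 to 0.538 CPM). They were lower with the combination, at means of 702 for VIM, 985 for SPARC and 668 CPM for COL1A1, against 1057, 1855 and 1610.0 CPM in DMSO, and their part in the results was not tested. The blood cell markers CD3E (0 CPM) and PTPRC (at most 0.366 CPM) were at or near 0, and the epithelial markers EPCAM (at most 4.03 CPM) and CDH1 (at most 2.71 CPM) and the endothelial marker VWF (at most 4.83 CPM) were low.

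The human mitochondrial genome is a small circle that is copied into long transcripts from both of its strands. Transfer RNAs lie between most of the genes, and cutting them out frees the mRNAs and the ribosomal RNAs, after which most mRNAs receive a short poly(A) tail. The mRNAs encode core subunits of the respiratory complexes, while every protein that copies, transcribes, cuts, stabilises or degrades the mitochondrial RNAs is made from nuclear genes and imported.

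The 13 mRNAs all lie on the mitochondrial chromosome (M, GRCh38), from ND1 at chrM:3307-4262 to CYTB at chrM:14747-15887, and each is 1 exon. ND6 (chrM:14149-14673) is the 1 member encoded on the minus strand. It held 35.6% G, against 6.28% to 16.2% G in the other 12. The last 15 bases of 4 annotated genes are shown because their stop codons are encoded in different ways. These annotated ends need not be the ends of the RNAs. The encoded letters of the stop codon are in capitals (GENCODE release 29 transcripts).
ND1: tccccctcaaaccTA
CYTB: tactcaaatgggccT
COX1: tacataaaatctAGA
ND6: gctcgggggaatAGG
In 6 of the 13 mRNAs (ND1, ND2, COX3, ND3, ND4 and CYTB) only T or TA of the stop is encoded, and the poly(A) tail supplies the rest. The other 7 encode a whole stop, in COX1 and ND6 as AGA and AGG. The next sequence is the stretch of 46 bases that ATP8 and ATP6 share (chrM:8527-8572), with the start codon of ATP6 and the stop codon of ATP8 in capitals.
ATP8 and ATP6: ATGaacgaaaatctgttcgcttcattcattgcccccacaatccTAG
Reads within it cannot be assigned to 1 of the 2 genes, and the counting rule for them is not stated. ATP8 is 207 and ATP6 681 bases long, and ND4L shares 7 bases with ND4. Read pairs of 150 bp that only partly cover shared bases may be affected too. The counts of these 4 genes are therefore uncertain, most of all for ATP8. Overlapping genes need not lie on separate RNA molecules, so counts of mRNAs given here are counts of genes. Whether counting used strand is not given either, so reads of ND6 and of RNA antisense to it cannot be told apart.

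The first comparison asked how the combination differed from DMSO. All 13 mitochondrial mRNAs fell, and in all 13 the 3 combination libraries lay below the 3 DMSO libraries with no overlap. The median log2 fold change was -1.39, against 0.04 over all 17290 tested genes. In this comparison 41% of all tested genes were called at an adjusted p under 0.05, 19.7% as falls, and 25.2% had combination libraries wholly below the DMSO libraries. Tests are edgeR's quasi-likelihood test with Benjamini-Hochberg adjustment over all tested genes, and a fold change carries its standard error (SE). In bulk RNA, fewer mitochondria or cells that hold an RNA and less of it in each cannot be told apart.

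CYTB, the mitochondrially encoded subunit of complex III, had 573, 868 and 999.996 CPM with the combination, against 2223, 2694 and 3579 CPM in DMSO. Its log2 fold change was -1.80 (SE 0.20, adjusted p = 8.12e-06), the most negative of the 13. Even the highest combination library held less CYTB than the lowest DMSO library.

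The 3 complex IV subunits, the core of cytochrome c oxidase, fell by a median of 1.42 on the log2 scale. COX1, the catalytic subunit, had 3382, 5121 and 6092 CPM with the combination, against 10287, 12051 and 16751 CPM in DMSO (log2 -1.42, SE 0.21, adjusted p = 0.000118). COX2, which receives electrons from cytochrome c, had 1992, 2576 and 3014 CPM with the combination, against 6543, 8395 and 10869 CPM in DMSO (log2 -1.77, SE 0.19, adjusted p = 7.5e-06). In both genes combination replicate 1 was lowest and DMSO replicate 3 highest. COX3 averaged 2983 ± 368 CPM with the combination and 7952 ± 2321 CPM in DMSO (SD, n = 3 each), a log2 fold change of -1.41 (SE 0.18).

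The 2 complex V subunits, which lie in the membrane part of ATP synthase, fell as well. ATP6 had 1274, 1581 and 2052 CPM with the combination, against 3761, 4478 and 6509 CPM in DMSO (log2 -1.59, SE 0.20, adjusted p = 2.53e-05). ATP8 averaged 35.4 ± 5.10 CPM with the combination and 88.7 ± 37.1 CPM in DMSO (SD, n = 3 each; log2 -1.33, SE 0.22). The DMSO spread of ATP8 came from replicate 3, at 131 CPM.

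The 7 complex I subunits, which build the membrane arm of NADH dehydrogenase, fell by a median of 1.19 on the log2 scale, from -1.41 for ND3 to -0.71 for ND1. ND1, the first mRNA after the ribosomal RNA genes, had 905, 939.6 and 1121 CPM with the combination, against 1260.2, 1460.0 and 2128 CPM in DMSO (log2 -0.71, SE 0.17, adjusted p = 0.00351). It was the least changed of the 13, with a gap between the highest combination library and the lowest DMSO library that was small beside the DMSO spread. ND4, at -1.39 (SE 0.18), averaged 1703 ± 284 CPM with the combination and 4466 ± 1300.1 CPM in DMSO. ND5, in the far part of the proton-pumping arm, averaged 544 ± 67.9 CPM with the combination and 1104 ± 246 CPM in DMSO (SD, n = 3 each; log2 -1.02, SE 0.15).

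ND6, the 1 mRNA copied from the other strand, fell as well. It had 127, 156 and 193 CPM with the combination, against 272, 351 and 416 CPM in DMSO (log2 -1.13, SE 0.16, adjusted p = 7.71e-05). The remaining members ND2 (-1.19), ND4L (-1.23) and ND3 (-1.41) lay between ND1 and COX3, and each had an SE of 0.17 or 0.18. The 6 mRNAs without a whole encoded stop had a median of -1.40 (range -1.80 to -0.71), and the 7 with one a median of -1.33 (range -1.77 to -1.02).

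**Figure D1:**
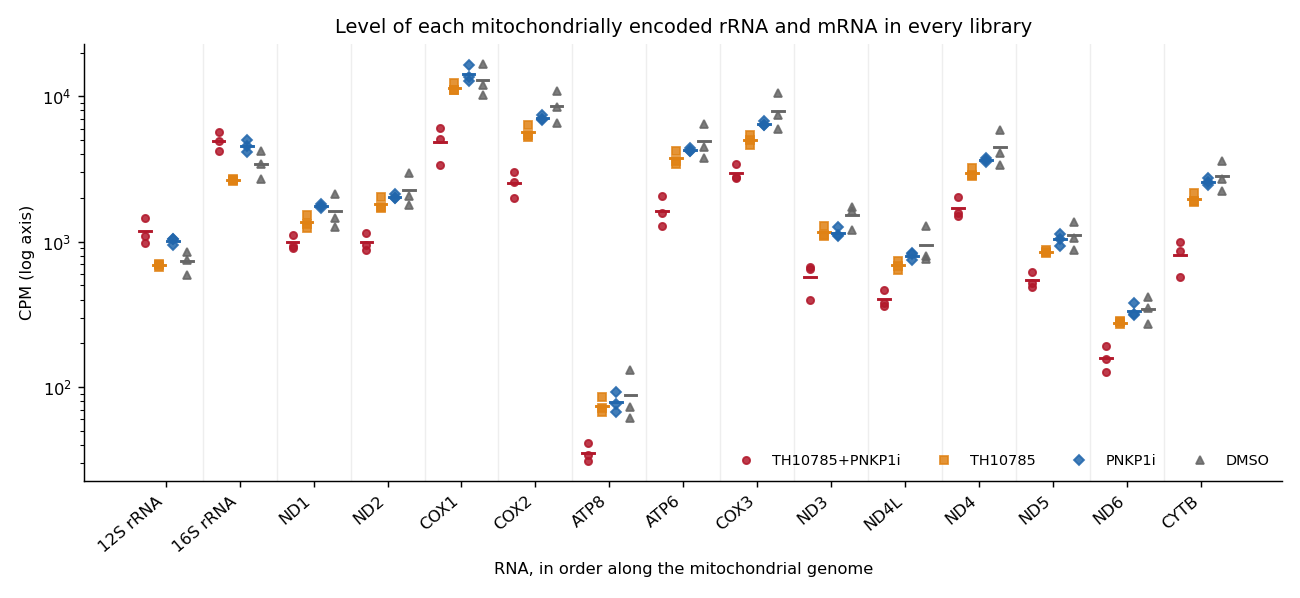
CPM (log axis) of the 2 ribosomal RNAs and the 13 mRNAs of the mitochondrial genome in each of the 12 libraries, in genome order from left to right, with a bar at each group mean. In every mRNA the 3 combination libraries sit below the libraries of the other 3 groups, whereas for both ribosomal RNAs the combination libraries lie above the TH10785 and DMSO libraries.

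Levels differed widely between members. Per kilobase of exon, COX2 had the highest DMSO level (12576 ± 3173 CPM per kb), followed by COX3 (10143 ± 2960.5), COX1 (8450.1 ± 2167) and ATP6 (7219 ± 2093), and neighbours in that order differed by less than their SD (n = 3). ND6 (660.2 ± 137), ND5 (609 ± 136) and ATP8 (428 ± 179 CPM per kb) were lowest. These are levels of reads counted per gene. As ATP8 overlaps ATP6, their values need not be levels of separate RNA molecules. With the combination COX3 (3805 ± 469.6 CPM per kb), COX2 (3695 ± 749) and COX1 (3155 ± 890.5) stood at the top, again within their SD of each other.

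The fall was unequal between members, and shares of the 13 mRNAs' summed counts show this without scaling between libraries. ND1 made up 6.15%, 5.19% and 5.13% of the sum with the combination, against 3.28%, 3.14% and 3.32% in DMSO. Every combination library thus held a larger share of ND1 than any DMSO library. The shares of ND2, ND4L, ND5 and ND6 were also higher in all 3 combination libraries than in any DMSO library, for ND5 at 3.03% ± 0.44 against 2.24% ± 0.09 (SD, n = 3 each). CYTB, COX2 and ATP6 had lower shares without overlap, for COX2 at 13.9% ± 0.36 with the combination and 17.3% ± 0.62 in DMSO. ND1 reads per COX1 read stood at 0.268, 0.183 and 0.184 with the combination, against 0.123, 0.121 and 0.127 in DMSO. These shares are a description, with no test, and 5 members (COX1, COX3, ND3, ND4 and ATP8) had overlapping shares with the combination. Some shares also differed from DMSO without overlap with each single agent. ND1 averaged 3.67% with TH10785 and 3.86% with PNKP1i, both above DMSO, and COX2 averaged 15.3% and 15.6%, both below. COX1 averaged 30.9% with TH10785 and 31.2% with PNKP1i, against 26.3% in DMSO. The shares of COX3 and ND4 also lay wholly below DMSO with each single agent, though not with the combination. With TH10785 but not PNKP1i, ND2 lay wholly above DMSO and CYTB wholly below. With PNKP1i but not TH10785, ND3 lay wholly below. Shares without overlap were thus not particular to the combination.

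The ribosomal RNAs of the same genome did not fall. The small ribosomal RNA (MT-RNR1) had 1462, 979.6 and 1090.2 CPM with the combination, against 590.4, 747 and 857 CPM in DMSO, and rose by the test (log2 0.69, SE 0.16, adjusted p = 0.00264). The large ribosomal RNA (MT-RNR2) had 5657, 4208 and 4972 CPM with the combination, against 2692, 3453 and 4199 CPM in DMSO (log2 0.52, SE 0.16, adjusted p = 0.018). For MT-RNR2 the lowest combination library lay just above the highest DMSO library. Both rises lost their call when each library was corrected for its trend with GC content and gene length, at 0.41 (adjusted p = 0.0988) for MT-RNR1 and 0.06 (adjusted p = 0.805) for MT-RNR2. The call of MT-RNR2 also ended without combination replicate 1 (adjusted p = 0.0687), DMSO replicate 1 (0.0914) or DMSO replicate 2 (0.0582), and in a fit of the 6 compared libraries (0.051).

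The count ratio of the 13 mRNAs to the 2 ribosomal RNAs needs no scaling between libraries. It was 2.07, 3.49 and 3.61 with the combination, against 11.7, 11.1 and 12.7 in DMSO. The TH10785 libraries had ratios of 10.5, 10.8 and 11.99, and the PNKP1i libraries ratios of 9.48, 7.35 and 7.88. All 3 combination libraries lay below the other 9 libraries, and all 3 PNKP1i libraries lay below the TH10785 and DMSO libraries. The 13 mRNAs took 1.67% to 2.47% of library counts with the combination, 3.52% to 3.55% with TH10785, 4.08% to 4.58% with PNKP1i and 3.88% to 6.23% in DMSO. Whether and how ribosomal RNA was removed or mRNA selected is not stated. The counts of both kinds of RNA, and their ratio, may depend on that step.

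**Figure D2:**
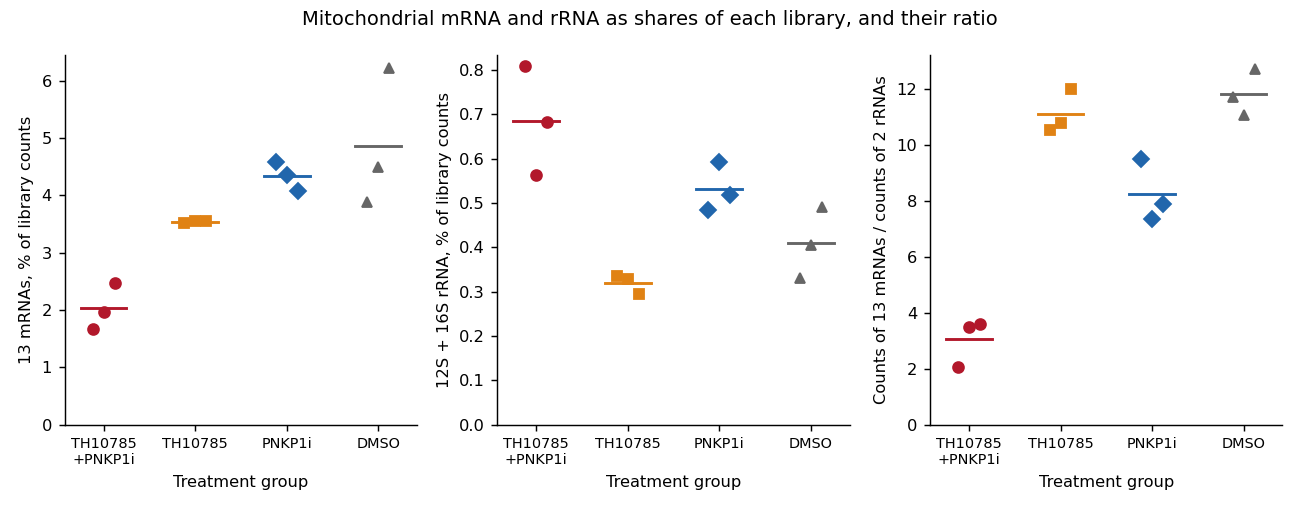
Share of library counts (%) taken by the 13 mitochondrial mRNAs (left) and by the 2 mitochondrial ribosomal RNAs (middle), and the ratio of these counts (right), for each library with a line at the group mean. The combination libraries hold the smallest mRNA shares (1.67% to 2.47%) and ratios (2.07 to 3.61), all below the other 9 libraries.

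Of the 22 mitochondrial transfer RNAs, 18 had enough reads to test. With the combination against DMSO, 3 of them fell and 0 rose, beside 19.7% and 21.3% of all genes, and with offsets for GC content and length 9 fell and 0 rose (17.5% and 16.6% of all genes). MT-TC and MT-TN took 41.2% and 40.2% of all transfer RNA counts. The 3 that fell were MT-TN (log2 -1.09, SE 0.30, adjusted p = 0.00792), MT-TY (log2 -1.04, SE 0.22, adjusted p = 0.00173) and MT-TP (log2 -0.50, SE 0.17, adjusted p = 0.025). The 18 had a median of -0.33. Transfer RNAs are shorter than the inserts that the protocol describes, and reads of a free transfer RNA and of a longer RNA that spans it cannot be told apart.

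Nuclear copies of mitochondrial sequence could take or lend reads. The table lists 373 such pseudogenes, 85 had any count and 9 were tested. Their summed counts were 0.493% to 0.668% of those of the 13 mRNAs in each library. MTATP6P1, at chr1:633696-634376, held 75.3% of them. It fell by 1.61 on the log2 scale (SE 0.20, adjusted p = 1.97e-05), beside -1.59 for ATP6, whose sequence it copies. Reads of such near-identical copies cannot be told apart from those of the mitochondrial genes.

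The single agents were compared with the same 3 DMSO libraries, so the 3 comparisons with DMSO are not independent. With TH10785 alone, edgeR's test called 0 of the 13 mitochondrial mRNAs, beside 0.561% of all genes, 7 passed an unadjusted p under 0.05, and DESeq2 called 1. All 13 fold changes were negative, with a median of -0.38, against -0.02 over all tested genes. COX3 had 4658, 4997 and 5419 CPM with TH10785, against 5964, 7389 and 10503 CPM in DMSO, the most negative at -0.66 (SE 0.18, adjusted p = 0.109, and 0.0378 without DMSO replicate 1). Its TH10785 libraries lay wholly below its DMSO libraries, as for 6 of the 13 mRNAs (10% of all genes). COX1 was nearest to 0 at -0.18 (SE 0.21, adjusted p = 0.738), with 11033, 11079 and 12277 CPM for TH10785 inside the DMSO range.

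With PNKP1i alone, edgeR's test called 0 of the 13 mRNAs, beside 0.197% of all genes, 1 passed an unadjusted p under 0.05, and DESeq2 called 0. The median was -0.18, and in 13 of 13 the PNKP1i libraries overlapped the DMSO libraries (14.2% of all genes lay wholly below). Of the 13, ND3 was the most negative (log2 -0.40, SE 0.18, adjusted p = 0.427), and COX1 and ND1 were above 0 (0.13 and 0.12). MT-RNR1 had 1043, 1043 and 945 CPM with PNKP1i, all above the 590.4, 747 and 857 CPM of DMSO, but did not pass the test (log2 0.47, SE 0.16, adjusted p = 0.325), although it did in a fit of the 6 compared libraries (adjusted p = 0.0134). MT-RNR2 averaged 4568 ± 406 CPM with PNKP1i and 3448 ± 753 CPM in DMSO (SD, n = 3 each; log2 0.41, SE 0.16, adjusted p = 0.39), with overlap.

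**Figure D3:**
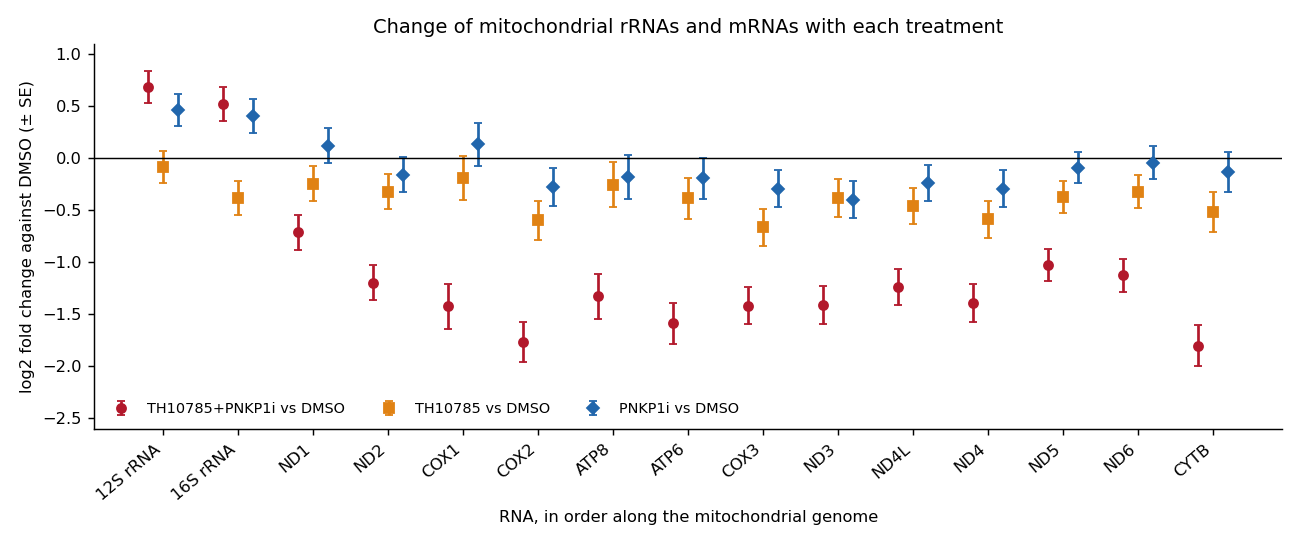
Log2 fold change against DMSO (± SE) of the 2 ribosomal RNAs and the 13 mRNAs in genome order, for the combination, TH10785 and PNKP1i. The combination lies between -1.80 and -0.71 for the mRNAs and above 0 for the ribosomal RNAs, and all 13 mRNAs are lower with it than with either compound alone. The 3 comparisons share the DMSO libraries.

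Set against each single agent, the combination still held less of every mitochondrial mRNA. Against TH10785, 13 of 13 fell, beside 19.7% of all genes (42.3% were called in either direction), with a median of -0.87 and a range from -1.29 (CYTB) to -0.47 (ND1). The ND1 call (adjusted p = 0.0343) ended in 4 of the 12 fits that left out 1 library: without combination replicate 1 (0.106), combination replicate 2 (0.075), TH10785 replicate 2 (0.0571) or TH10785 replicate 3 (0.0916). Against PNKP1i, 13 of 13 fell, beside 21.5% of all genes (46% were called in either direction), with a median of -1.10 and a range from -1.67 (CYTB) to -0.83 (ND1). CYTB averaged 814 ± 219 CPM with the combination, 1983 ± 153 CPM with TH10785 and 2589 ± 152 CPM with PNKP1i (SD, n = 3 each). These comparisons share the combination libraries.

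The interaction term asked whether the combination departed from the sum of both single effects on the log2 scale. Of the 13 mRNAs, 7 were called, all below the sum, beside 14.1% of all genes (30.6% were called in either direction). They were COX1 (-1.37, SE 0.30, adjusted p = 0.00656), CYTB (-1.16, SE 0.27, adjusted p = 0.00811), ATP6 (-1.01, SE 0.28, adjusted p = 0.0142), COX2 (-0.90, adjusted p = 0.0188), ATP8 (-0.90, adjusted p = 0.0332), ND6 (-0.76, adjusted p = 0.0199) and ND2 (-0.71, adjusted p = 0.0325). COX1 showed the pattern plainly, at 11463 ± 706 CPM with TH10785 and 14295 ± 1896 CPM with PNKP1i around a DMSO mean of 13030.0 ± 3341 CPM, beside 4865 ± 1373 CPM with the combination (SD, n = 3 each). COX3 did not pass (-0.46, SE 0.25, adjusted p = 0.172). The number of calls ran from 4 without PNKP1i replicate 1 to 12 without DMSO replicate 3, the DMSO library with the highest mitochondrial mRNA share. COX1, COX2, CYTB and ATP6 kept their call in all 19 alternatives. The ATP8 and ND2 calls each ended in 5 of 19, with adjusted p up to 0.132 and 0.0799: both without combination replicate 1, PNKP1i replicate 1, DMSO replicate 1 or DMSO replicate 2, and also ATP8 without TH10785 replicate 3 and ND2 without PNKP1i replicate 3. The ND6 call ended without PNKP1i replicate 1 (0.054).

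Among the 26 nuclear members, 10 rose and 2 fell in the combination against DMSO, beside 21.3% and 19.7% of all genes. Their median was 0.35. The combination libraries lay wholly above the DMSO libraries in 12 and wholly below in 5 (28.4% and 25.2% of all genes).

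The 7 transcription factors and enzymes held 4 of the rises and 0 falls. TFAM, which packages mitochondrial DNA and bends it at the promoters (chr10:58385022-58399221, GRCh38), had 72.8, 63.2 and 77.6 CPM with the combination, against 34.0, 30.2 and 34.7 CPM in DMSO (log2 1.11, SE 0.21, adjusted p = 0.000709). TFB2M, which opens the promoter DNA for the polymerase, had 24.8, 19.9 and 19.4 CPM with the combination, against 8.44, 11.2 and 11.9 CPM in DMSO (log2 1.02, SE 0.18, adjusted p = 0.000423). In both genes every combination library exceeded every DMSO library. MTERF1, which binds DNA just beyond the ribosomal RNA genes and can stop transcription there, showed the largest rise of the 26 at 7.31, 5.86 and 8.73 CPM with the combination, against 2.93, 3.36 and 2.62 CPM in DMSO (log2 1.3, SE 0.28, adjusted p = 0.00169). TEFM, the elongation factor, averaged 5.16 ± 0.439 CPM with the combination and 2.88 ± 0.323 CPM in DMSO (SD, n = 3 each; log2 0.84, SE 0.23, adjusted p = 0.00931).

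The RNA polymerase itself, POLRMT, was not called, at 139, 111 and 112 CPM with the combination, against 118, 142 and 145 CPM in DMSO (log2 -0.17, SE 0.16, adjusted p = 0.424), and its groups overlapped. TFB1M, which methylates the small ribosomal RNA (0.33, SE 0.17), and MTERF3, known in mice as a brake on mitochondrial transcription (0.38, SE 0.17), did not pass the test, with adjusted p = 0.14 and 0.0854.

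Of the 4 replication proteins, 1 rose and 1 fell. POLG2, the accessory subunit of the DNA polymerase, had 19.8, 18.3 and 20.5 CPM with the combination, against 14.5, 10.8 and 12.1 CPM in DMSO (log2 0.65, SE 0.17, adjusted p = 0.00553). POLG, its catalytic subunit, had 84.9, 82.9 and 84.5 CPM with the combination, against 119.7, 126 and 118 CPM in DMSO (log2 -0.53, SE 0.11, adjusted p = 0.00171). The mRNAs for the 2 subunits thus moved in opposite directions, without overlap in either gene. The helicase TWNK (0.17, SE 0.13, adjusted p = 0.301) and the single-strand binding protein SSBP1 (0.25, SE 0.12, adjusted p = 0.104) were not called.

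Of the 7 genes for RNA stability, 3 rose and 0 fell. LRPPRC, which with SLIRP stabilises mitochondrial mRNAs and promotes their polyadenylation (chr2:43886508-43996005), had 116, 90.5 and 127 CPM with the combination, against 58.9, 58.1 and 65.2 CPM in DMSO (log2 0.87, SE 0.21, adjusted p = 0.00417). SLIRP, its partner, had 34.7, 59.5 and 40.4 CPM with the combination, against 40.7, 31.3 and 32.0 CPM in DMSO, which overlapped (log2 0.37, SE 0.17, adjusted p = 0.0849). Of the 5 members of the FASTK family of mitochondrial RNA-binding proteins, FASTKD1 (log2 0.88, SE 0.27, adjusted p = 0.017) and FASTKD2 (log2 0.60, SE 0.22, adjusted p = 0.0352) rose, while FASTK (-0.35, adjusted p = 0.078), FASTKD5 (-0.31, adjusted p = 0.0744) and FASTKD4 (-0.15, adjusted p = 0.439) did not pass. The FASTKD1 call ended without combination replicate 3 (adjusted p = 0.0555) or DMSO replicate 3 (0.0697). The FASTKD2 call ended without combination replicate 1 (0.0994), combination replicate 3 (0.139), DMSO replicate 1 (0.134) or DMSO replicate 2 (0.0789), and with a replicate block (0.0613).

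Among the RNA turnover enzymes, PNPT1, the exonuclease of the mitochondrial degradosome, had 41.4, 32.9 and 37.1 CPM with the combination, against 21.7, 18.8 and 20.8 CPM in DMSO (log2 0.86, SE 0.21, adjusted p = 0.00396). Its helicase partner SUPV3L1 averaged 54.3 ± 6.42 CPM with the combination and 52.7 ± 1.12 CPM in DMSO (SD, n = 3 each; log2 0.04, SE 0.11, adjusted p = 0.788). The poly(A) polymerase MTPAP was not called (0.41, SE 0.17, adjusted p = 0.0616). Of the 3 genes for cutting out transfer RNAs, 1 rose and 1 fell. TRMT10C, a subunit of the mitochondrial RNase P that cuts at the 5′ end, averaged 12.8 ± 2.06 CPM with the combination and 7.55 ± 0.833 CPM in DMSO (SD, n = 3 each; log2 0.76, SE 0.21, adjusted p = 0.00941, and 0.0508 without combination replicate 3). ELAC2, the RNase Z that cuts at the 3′ end, fell to 75.4, 83.7 and 74.7 CPM, against 102, 120.0 and 109 CPM in DMSO (log2 -0.50, SE 0.12, adjusted p = 0.00424). HSD17B10, another RNase P subunit, did not pass (-0.38, SE 0.15, adjusted p = 0.0565).

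The nuclear regulators were not called. NRF1, a transcription factor for many respiratory genes, had 30.4, 28.6 and 26.7 CPM with the combination, against 31.7, 36.0 and 32.4 CPM in DMSO (log2 -0.22, SE 0.12, adjusted p = 0.159). PPARGC1A, its coactivator PGC-1α, was barely expressed, at 1.33 ± 0.71 CPM with the combination and 2.07 ± 0.809 CPM in DMSO (SD, n = 3 each; log2 -0.64, SE 0.48).

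**Figure D4:**
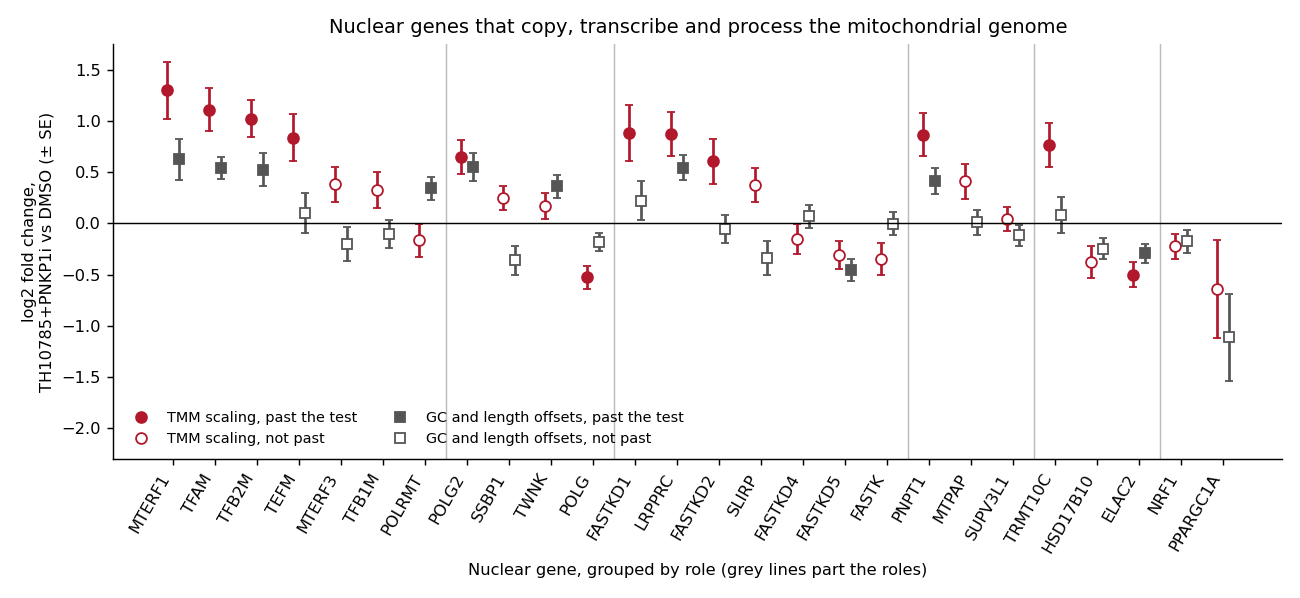
Log2 fold change (± SE) of the 26 nuclear members in the combination against DMSO, grouped from left to right as transcription, replication, RNA stability, RNA turnover, transfer RNA cutting and nuclear regulators. Red circles are the values with TMM scaling and grey squares those with offsets for GC content and length, filled where the gene passed the test. With TMM scaling 10 genes rose and 2 fell, and with offsets 8 rose and 2 fell.

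GC content moved with these nuclear results. The 10 nuclear genes that rose had a median transcript GC content of 38.8% (36.5% to 47.5%), the 2 that fell 56.4% and the other 14 45.6%, against 49.3% over 17282 tested genes. Across the 26 genes GC content and log2 fold change had a Pearson r of -0.70 and a Spearman rho of -0.69. With offsets that remove each library's trend with GC content and length, these were -0.04 and -0.15. The offsets are fitted to that trend over all tested genes, so values near 0 largely follow from the fit. They may also remove a real response that runs with GC content. The same correlation over all tested genes is not given here. The points share the same 6 libraries, so these are descriptions.

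With the offsets, 10 nuclear members were called, 8 as rises and 2 as falls, beside 16.6% and 17.5% of all genes (34% in either direction), and 7 of the 12 called without offsets were called in the same direction. These 7 were MTERF1 (0.62), POLG2 (0.55), LRPPRC (0.54), TFAM (0.54), TFB2M (0.52), PNPT1 (0.41) and ELAC2 (-0.29), and the same 7 were called in all 20 alternatives. FASTKD1, FASTKD2, TEFM, TRMT10C and POLG lost their call (0.22, -0.06, 0.10, 0.08 and -0.18). POLRMT (0.34, adjusted p = 0.0274), TWNK (0.36, adjusted p = 0.0168) and FASTKD5 (-0.46, adjusted p = 0.00334) were called with the offsets only. The 13 mitochondrial mRNAs, at 39.6% to 47.7% GC, all fell with the offsets too, with a median of -1.71.

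**Figure D5:**
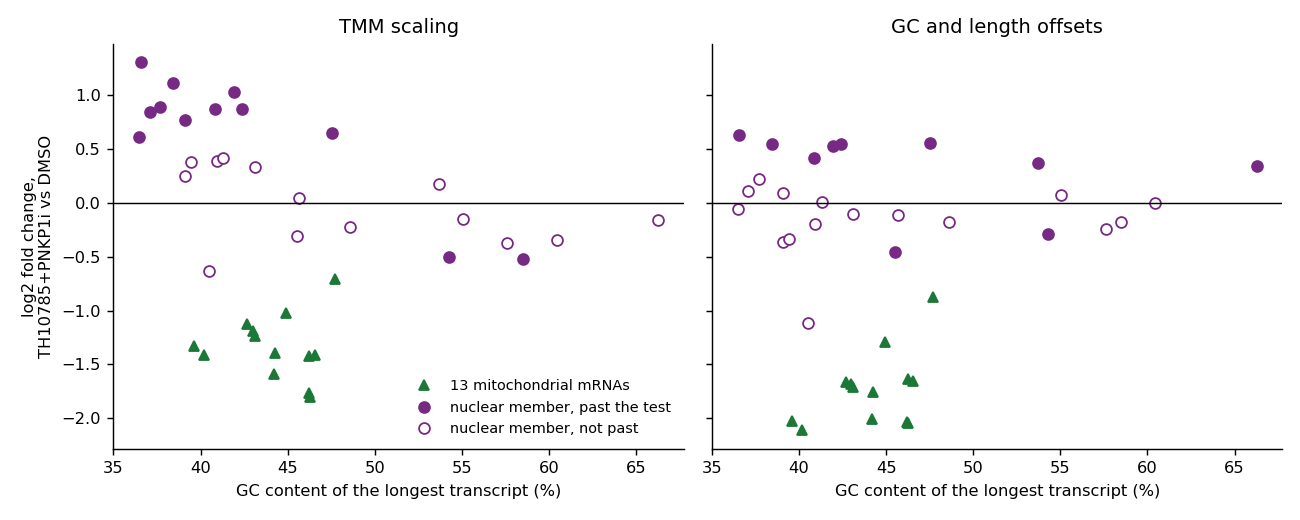
Log2 fold change in the combination against DMSO plotted against transcript GC content (%), with TMM scaling (left) and with offsets for GC content and length (right), for the 26 nuclear members (circles, filled where the gene passed the test) and the 13 mitochondrial mRNAs (triangles). With TMM scaling the nuclear members slope downward with GC content (r = -0.70). With the offsets, which are fitted to remove such a trend, they do not (r = -0.04). The 13 mRNAs lie below 0 in both.

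No nuclear member passed edgeR's test with either single agent in the fit of all 12 libraries with the low-count filter. With TH10785 alone 0 of 26 were called (0.561% of all genes), 2 passed an unadjusted p under 0.05 and DESeq2 called 0. With PNKP1i alone 0 of 26 were called (0.197% of all genes), 1 passed an unadjusted p under 0.05 and DESeq2 called 0. In edgeR's fit of the compared groups only, FASTKD2 (-0.57, adjusted p = 0.0131) and LRPPRC (-0.33, adjusted p = 0.0346) were called with PNKP1i. Without the filter, edgeR's test called PPARGC1A with TH10785 (-1.71, adjusted p = 0.00238). TH10785 replicate 3 was the lowest library of its group in 18 of the 26 nuclear members (36.5% to 47.5% GC) and the highest in the other 8 (48.6% to 66.3% GC), by margins that were small in some, such as SSBP1 at 50.5 CPM beside 54.8 and 58.1 CPM. It had 21.6 CPM of TFAM, against 47.7 and 44.4 CPM in TH10785 replicates 1 and 2, 25.9 CPM of LRPPRC, against 61.7 and 52.6 CPM, and 167 CPM of the GC-rich POLRMT, against 109 and 121 CPM. Without that library 0 of 26 were called for TH10785 alone.

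Against TH10785 alone, 13 nuclear members rose and 3 fell with the combination, and against PNKP1i alone 13 rose and 6 fell. Of all genes 22.7% rose and 19.7% fell against TH10785, and 24.4% rose and 21.5% fell against PNKP1i. LRPPRC averaged 111 ± 18.7 CPM with the combination, 46.7 ± 18.6 CPM with TH10785 and 47.7 ± 1.13 CPM with PNKP1i (SD, n = 3 each), for a log2 fold change of 1.25 (SE 0.22) and 1.22 (SE 0.21). HSD17B10 fell in both, by 0.55 (SE 0.15) and 0.60 (SE 0.15) on the log2 scale. Without TH10785 replicate 3, 13 of the 16 calls against TH10785 held and TEFM, MTERF3 and MTPAP lost theirs (adjusted p = 0.205, 0.0866 and 0.108). With GC and length offsets 6 rose and 4 fell in each comparison, beside 33.4% and 33.3% of all genes called. Of the 16 calls against TH10785, 8 then held, 8 ended and 2 genes were newly called, SSBP1 (-0.62) and SLIRP (-0.75). Of the 19 against PNKP1i, 8 held, 10 ended, SSBP1 was called in the opposite direction (-0.39) and TWNK was newly called (0.35).

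The interaction was called for 12 of the 26 (30.6% of all genes), 9 above and 3 below the sum of the single effects (16.5% and 14.1% of all genes). With TMM scaling the largest were FASTKD2 (1.61, SE 0.31, adjusted p = 0.00561), LRPPRC (1.6, SE 0.30, adjusted p = 0.00561) and TRMT10C (1.46, SE 0.31, adjusted p = 0.00623). Both single agents had negative fold changes for FASTKD2, at -0.42 with TH10785 and -0.58 with PNKP1i, neither called in the fit of all 12 libraries. HSD17B10 (-0.78), FASTKD4 (-0.64) and ELAC2 (-0.58) were called below the sum. With the offsets 7 were called, beside 18.9% of all genes, of which 4 were among the 12 and TWNK (0.49), SSBP1 (-0.65) and SLIRP (-0.73) were new. The 8 that ended were TFAM (0.29, adjusted p = 0.174), TFB2M (0.50, adjusted p = 0.12), MTERF1 (0.32, adjusted p = 0.467), FASTKD1 (0.57, adjusted p = 0.149), PNPT1 (0.52, adjusted p = 0.0516), FASTKD4 (-0.36, adjusted p = 0.115), ELAC2 (-0.36, adjusted p = 0.0654) and HSD17B10 (-0.36, adjusted p = 0.0782). POLG2, FASTKD2, LRPPRC and TRMT10C were called in all 19 alternatives. Over these, FASTKD2 ranged from 0.66 to 1.81, TRMT10C from 0.78 to 1.70, LRPPRC from 1.0001 to 1.82 and POLG2 from 1.01 to 1.28, so the order of their sizes changed with the processing. The call also ended without single libraries for MTERF1 (9 of the 12 libraries), FASTKD4 (5 of 12), FASTKD1 (combination replicate 3 or PNKP1i replicate 1) and ELAC2 (PNKP1i replicate 1).

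Promoter sequence was read for sites of NRF1, which binds GC-rich sites at many such genes and was not called itself. Whether NRF1 had a part in the 10 rises was not tested. The letters searched were GCGCA, then any 1 base, then GCGC, on both strands, in the window from 250 bases before to 50 bases after each start (RefSeq, GRCh38.p14). Of the 22 members with a promoter in that table, 4 held a match. Of all 34943 promoters, 5.74% held one. That share counts promoters and not genes, and some members have several promoters (SSBP1 has 3), so the figures are not like for like. TFAM and POLG2 are among the 10 that rose, TFB1M and POLRMT among the 12 that did not. A promoter of each kind is shown, as the 150 bases before the start with the match in capitals, at chr10:58385260-58385409 on the plus strand for TFAM and chr19:633538-633687 on the minus strand for POLRMT, where a pair of matches overlap.
TFAM: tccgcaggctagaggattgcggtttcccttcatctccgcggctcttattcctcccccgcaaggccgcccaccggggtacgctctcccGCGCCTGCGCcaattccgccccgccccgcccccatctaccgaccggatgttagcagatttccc
POLRMT: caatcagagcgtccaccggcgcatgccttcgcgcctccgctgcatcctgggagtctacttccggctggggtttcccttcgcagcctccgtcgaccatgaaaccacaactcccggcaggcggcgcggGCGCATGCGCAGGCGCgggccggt
The match ends 54 bases before the start in TFAM. A match is a run of letters and does not show that a factor binds there.

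Lists of further genes of mitochondrial DNA and RNA metabolism held 91 tested genes, of which 19 rose and 12 fell with the combination against DMSO, beside 21.3% and 19.7% of all genes, and 0 were called by edgeR's test with either single agent. Their median was 0.19. Of 12 genes for DNA maintenance, 1 rose and 3 fell, among them the primase-polymerase PRIMPOL (0.86, SE 0.20) and the topoisomerase TOP3A (-0.42, SE 0.12). Of 12 genes for nucleotide supply, 3 rose and 2 fell: RRM2B, the p53-induced ribonucleotide reductase subunit, had 66.7, 43.8 and 75.1 CPM with the combination, against 25.7, 25.04 and 27.4 CPM in DMSO (log2 1.25, SE 0.25, adjusted p = 0.00112), and the pyrimidine carrier SLC25A36 rose by 1.44 (SE 0.24). Of 35 further RNA processing genes 8 rose and 4 fell, including TRNT1, which adds the CCA end to transfer RNAs (1.16, SE 0.22), the oligoribonuclease REXO2 (0.61, SE 0.12) and the helicase DHX30 (-0.57, SE 0.13). Of 17 translation factors 5 rose and 2 fell, led by the initiation factor MTIF2 (1.14, SE 0.25). Of 15 coactivators and nuclear regulators 2 rose and 1 fell, the last being HCFC1 (-0.69, SE 0.11). With GC and length offsets the risers and fallers numbered 5 and 1 among the RNA processing genes and 1 and 1 among the translation factors. They numbered 2 and 2 for DNA maintenance, 3 and 2 for nucleotide supply, and 3 and 1 for the coactivators and regulators. Of all genes 16.6% rose and 17.5% fell with the offsets.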

How the data were processed

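TRIzol RNA was made into NEBNext Ultra libraries and read as pairs of 150 bp, per the labels' protocols. The genome builds GRCh38 and hg38 stand in the submitters' processing notes beside the tools DESeq2 1.30.1, HTSeq 0.6.1 and HISAT2 2.0.5. The authors deposited raw read counts for 58735 genes, used here, and a normalized signal for 35754 genes, each value being the raw count over 1 factor per library, deposited by the authors and not tested. All IDs matched GENCODE release 29. Testing used edgeR 4.0.16 under R 4.3.3 on the raw counts (filterByExpr, minimum count 10; TMM; robust quasi-likelihood, 1 mean per group over 12 libraries; 6 comparisons). CPM are TMM-scaled, and per kilobase of union exon where genes are compared. Alternatives were RLE scaling, no filter, a stricter filter (CPM of 1 in 3 libraries), DESeq2 1.42.0, fits of only the compared groups, a replicate block, GC and length offsets (splines, 5 degrees of freedom), scaling without mitochondrial genes, and leaving out each library. The fit was also run on simulated data in which few genes changed and GC content had no effect. That run does not bear on calls that depend on GC content. Members and lists were chosen with earlier results of these data known. All 39 members were open to naming; from each other list, up to 4 called genes with the smallest p.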

Additional observations from a re-analysis of the deposited data

Results flagged for a closer look

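With TMM scaling, for 19 members the effect of PNKP1i in the presence of TH10785 differed from its effect in its absence, by the interaction term in edgeR's quasi-likelihood test. Below the sum of the single effects on the log2 scale were COX1 (-1.37), CYTB (-1.16), ATP6 (-1.01), COX2 (-0.9), ATP8 (-0.9), ND6 (-0.76) and ND2 (-0.71) among the mitochondrial mRNAs, and HSD17B10 (-0.78), FASTKD4 (-0.64) and ELAC2 (-0.58) among the nuclear genes. Above the sum were FASTKD2 (1.61), LRPPRC (1.6), TRMT10C (1.46), FASTKD1 (1.31), PNPT1 (1.18), MTERF1 (1.17), POLG2 (1.14), TFAM (1.13) and TFB2M (0.96). With GC and length offsets all 7 mitochondrial mRNAs were still called, but 8 of the 12 nuclear genes were not: FASTKD1 (0.57), PNPT1 (0.52), TFB2M (0.50), MTERF1 (0.32), TFAM (0.29), HSD17B10 (-0.36), FASTKD4 (-0.36) and ELAC2 (-0.36). The MTERF1 call ended in 11 of 19 alternatives, that of FASTKD4 in 7, those of ATP8 and ND2 in 5 each, that of FASTKD1 in 3, that of ELAC2 in 2 and those of ND6, TFAM, TFB2M, PNPT1 and HSD17B10 in 1 each. No outlier test was run on groups of 3 libraries.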

How the results depend on the processing

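The count of 13 mitochondrial mRNAs that fell with the combination, against DMSO and against PNKP1i, held in all 20 alternatives, and against TH10785 it was 12 to 13 on leaving out 1 library. For TH10785 against DMSO, 4 mRNAs were called with no filter, 1 with DESeq2, 1 with GC and length offsets and 0 to 1 on leaving out a library. The interaction called 11 mRNAs with no filter and 4 to 12 on leaving out a library. Of the nuclear members, 1 was called for TH10785 with no filter and 2 for PNKP1i in a fit of the 6 compared libraries. With the offsets 10 were called against TH10785 (8 of them among the 16), 10 against PNKP1i (8 of the 19 in the same direction) and 7 for the interaction (4 of the 12); leaving out a library gave 12 to 16, 13 to 19 and 8 to 13; against DMSO leaving out a library gave 9 to 17. Among genes called with or without the offsets, direction turned for POLRMT (0.34) and FASTKD2 (-0.0555) against DMSO, where the sign of 6 uncalled genes changed as well (TFB1M, MTERF3, SSBP1, SLIRP, SUPV3L1 and FASTKD4); for TEFM (-0.082), MTERF3 (-0.0491), SSBP1 (-0.62) and MTPAP (-0.0555) against TH10785; for SSBP1 (-0.39), SLIRP (-0.32) and MTPAP (-0.0671) against PNKP1i; and for SSBP1 (-0.65) in the interaction. The cause was not tested. In their deviations from group means, same-numbered libraries correlated by -0.25 to 0.13 and differently numbered ones by -0.26 to 0.30. Of 12 libraries, 1 correlated best with its own number. No effect shared by replicate number was thus seen, but this cannot show whether the samples were paired. With a replicate block 13 mRNAs were called in each comparison of the combination and 8 for the interaction, and 11, 12, 17 and 10 nuclear members against DMSO, TH10785, PNKP1i and for the interaction. The share of all genes called differed between fits too, for the combination against DMSO at 41% with TMM scaling and 34% with the offsets. For the other alternatives it is not given here, so their counts cannot show a change particular to the members. Depth limits PPARGC1A (7 counts at the lowest), MTERF1 and TEFM.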
